A study of Arabidopsis thaliana with 18 samples.

Results

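Transcript levels in sog1-7 seedlings were set against those of wild type seedlings when both grew on medium with 1.5 mM AlCl3. The comparison rested on 6 of the 18 RNA sequencing libraries of an Arabidopsis thaliana series, 3 of sog1-7 and 3 of wild type, chosen by genotype and AlCl3 concentration and with all genes included. The mutant sog1-7 has lost the function of SOG1 and is described as tolerant of aluminium, and wild type was Col-0, the ecotype of every sample. Both genotypes were also grown at 0 mM AlCl3 (3 libraries each). The als3-1 libraries at both concentrations were not compared here. They entered the filter on low counts, the scaling, the estimate of spread and the mean level behind the largest changes named. All seedlings grew on soaked gel medium of pH 4.2 at 20 °C in constant light and were frozen whole 84 h after sowing. Poly(A) RNA was sequenced, so each value averages over root, shoot and remaining seed reserves, and fewer cells of a type cannot be told apart from less RNA per cell. How many seedlings went into a library, and whether the 3 libraries of a group were separate cultures, is not given in the sources used here, so each p-value reflects the variation among the sequenced libraries alone, and this can be technical.

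SOG1 is a NAC transcription factor of plants that is activated by the kinases ATM and ATR when DNA is damaged, and it switches on genes that halt the cell cycle and repair DNA. It binds a palindrome made of CTT and AAG with 7 bases of any kind between them. Aluminium ions stop root growth in acid medium, and in Arabidopsis part of that stop runs through ATR and SOG1, with the root tip cells leaving division for the endocycle. The question of the comparison is which transcripts depend on SOG1 under aluminium.

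At 1.5 mM, 1602 of 21650 genes tested passed (7.4%), 811 of them higher in sog1-7 (3.75%) and 791 lower (3.65%), by edgeR's quasi-likelihood test with Benjamini-Hochberg adjustment at 0.05. Of these, 555 differed at least 2-fold, 267 higher and 288 lower. Among the named genes were lower transcripts of iron uptake (14 of 22) and of the photosynthetic apparatus (12 of 18) and higher transcripts of seed storage proteins (4 of 14) and of seed oil use (4 of 8). DNA damage genes accounted for a small number of calls. Leaving out a single library changed the count to 1412 without sog1-7 replicate 2, 593 without sog1-7 replicate 3, 583 without sog1-7 replicate 4, 727 without wild type replicate 2, 855 without wild type replicate 3 and 946 without wild type replicate 4. With the replicate number as a block over all 18 libraries, 3611 genes passed (16.7%, with 8.49% higher and 8.19% lower). That block treats same-numbered libraries as paired in every group, also in als3-1 and at 0 mM, while the main fit pairs none. The block on the 6 libraries alone, which pairs only those of this comparison, gave 898. Values given below for the replicate block come from all 18 libraries unless the 6 are named. List counts from that block stand beside its own shares of 8.49% higher and 8.19% lower. Libraries of the 2 genotypes did not overlap for 14.5% of all genes in the higher direction and for 14.9% in the lower, whether called or not. On the deposited FPKM values, where the median of all genes lay at 0.226 log2 units and not at 0.011 as on counts, 89.6% of 1637 calls were higher, against 50.6% on counts.

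The 6 libraries held 28767682 to 44499405 counted reads, and 3 counts in 1 library corresponded to 0.0674 to 0.104 CPM, counts scaled per 1000000 reads. Reads on 4 ribosomal RNA genes made up 0.0285% of sog1-7 replicate 2, while the other 5 libraries held between 2.31% and 4.09%. Replicate 2 of sog1-7 at 0 mM (0.0174%) and of als3-1 at 1.5 mM (0.0168%) were low as well, and no wild type library was. Together these are the low-rRNA libraries named below, so this trait was not balanced between the genotypes. SOG1 itself (AT1G25580) had 17.2, 17.7 and 15.1 CPM in sog1-7, against 17.45, 16.8 and 15.4 CPM in wild type, in the order of replicates 2, 3 and 4, which is kept for all values below. That level did not separate the genotypes (log2 fold change 0.01 ± 0.13 SE, edgeR adjusted p = 0.97), so the transcript count does not check the labels. The 4 marker lists of organs and seedling age were measured in the same libraries. Summed over 18 photosynthesis genes, sog1-7 libraries held 22203 to 27370 CPM and wild type libraries 33354 to 79761 CPM, with 0 genes called higher and 12 lower. Summed over 8 genes of reserve mobilisation, sog1-7 libraries held 4597 to 12583 CPM and wild type libraries 1274 to 3805 CPM, with 4 called higher. Summed over 14 seed storage genes, the ranges were 12.3 to 93.3 CPM in sog1-7 and 13.2 to 26.6 CPM in wild type, with 4 called higher. Over 13 root genes, sog1-7 libraries held 5733 to 8037 CPM and wild type libraries 4869 to 5802 CPM, with 0 called. Among the measured markers, a reading of 0 occurred in wild type for SESA3 (replicate 2) and EM1 (replicates 2 and 3), both seed genes. The part of organ proportions or seedling age in the gene differences below was not tested.

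**Figure D1:**
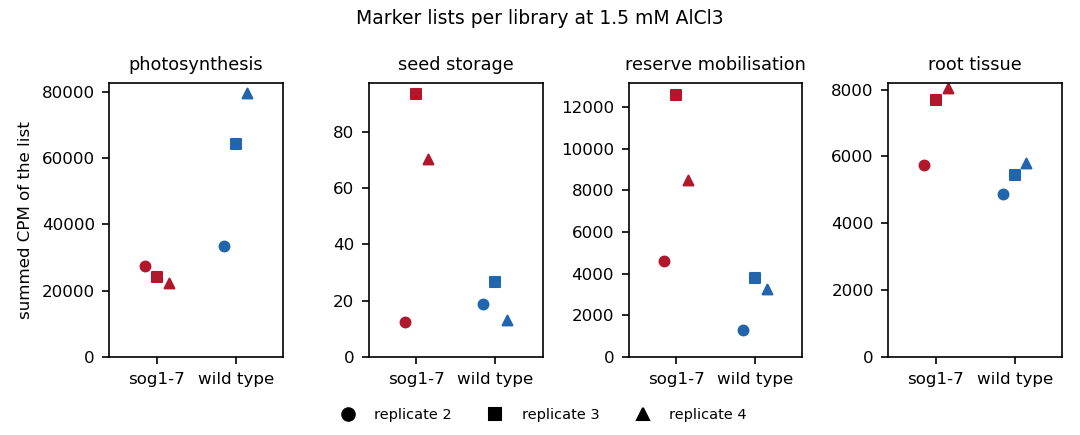
Summed TMM-scaled CPM (vertical axes, from 0) of 4 marker lists in each 1.5 mM library, sog1-7 on the left of each panel and wild type on the right, with 1 symbol per replicate number. The 3 sog1-7 libraries lie below the wild type libraries for photosynthesis (22203 to 27370 against 33354 to 79761 CPM) and above them for reserve mobilisation, and wild type replicate 2 is the lowest wild type library for photosynthesis.

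Genes that rise through SOG1 after DNA damage were the first group of interest, and a minority of them differed. Of 15 measured members, 3 were lower in sog1-7, beside 3.65% of all genes, and 0 higher. Their median log2 fold change was -0.17, beside 0.011 over all genes. On the FPKM values that median was 0.05, beside 0.226 over all genes. ABCA10 (AT5G61740, chromosome 5, 24808406 to 24812739), an ATP-binding cassette transporter, had 0.561, 0.446 and 0.537 CPM in sog1-7, against 2.6, 2.62 and 1.68 CPM in wild type. The groups did not overlap, and the difference was -2.15 ± 0.32 log2 units (edgeR adjusted p = 0.00154). AT1G20750 (chromosome 1, 7203302 to 7209013) had 0.436, 0.0279 and 0.0701 CPM in sog1-7, against 2.21, 2.81 and 1.29 CPM in wild type, which is -3.45 ± 0.55 (edgeR adjusted p = 0.0024). All 3 wild type libraries stood above sog1-7 replicate 2, the highest mutant library. SMR7 (AT3G27630, chromosome 3, 10230892 to 10231567), an inhibitor of cyclin-dependent kinases of the SIAMESE-RELATED family, had 0.644, 0.251 and 0.584 CPM in sog1-7, against 2.1, 1.91 and 1.22 CPM in wild type. Again the groups were apart, by -1.80 ± 0.47 (edgeR adjusted p = 0.032).

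The call of ABCA10 survived each omission of a single library, with edgeR adjusted p = 0.00316 to 0.0134, as did that of AT1G20750 (0.000388 to 0.0173). The AT1G20750 call ended when only the 6 libraries were fitted (adjusted p = 0.0518) and on log2(FPKM + 1) (limma adjusted p = 0.112). That of SMR7 ended without wild type replicate 2 or 3 or sog1-7 replicate 3 or 4 (adjusted p = 0.04 to 0.118 over the 6 omissions), and in the FPKM and 6-library fits (0.0556 to 0.0691).

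ERF115 (AT5G07310), a transcription factor that drives replacement of lost root stem cells, had 0.125, 0.0557 and 0.117 CPM in sog1-7, against 0.36, 0.411 and 0.28 CPM in wild type. These levels came from 13 counts in sog1-7 and 32 in wild type over 3 libraries each. The difference was -1.75 ± 0.56 and missed the threshold (edgeR adjusted p = 0.0695), which it passed with the replicate block (0.0457). The related ERF114 differed by -0.88 ± 0.42 (adjusted p = 0.218). NAC044, NAC085, SMR4, WEE1, PARP1, PARP2, AGO2, TRFL10, KRP6 and CYCB1;1, which make up the rest of the measured list, were not called, with NAC085 at 0.97 ± 0.56 the farthest from 0. SMR5, a close relative of SMR7, did not pass the filter on low counts.

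Of 27 measured genes of DNA repair and nucleotide supply, 2 were lower in sog1-7, beside 3.65% of all genes, and 0 higher. Their median log2 fold change was -0.07. This median became 0.143 on FPKM values (0.226 over all genes) and 0.016 without the low-rRNA libraries (-0.004 over all genes). TSO2 (AT3G27060), a small subunit of ribonucleotide reductase, the enzyme that makes the building blocks of DNA, had 103, 145 and 140 CPM in sog1-7, against 408, 578 and 332 CPM in wild type. It was the most abundant called gene of the damage lists, at -1.76 ± 0.49 (edgeR adjusted p = 0.0392). BRCA1 (AT4G21070), a homologous recombination factor, had 17.9, 18.6 and 21.2 CPM in sog1-7, against 36.8, 36.5 and 26.8 CPM in wild type, a difference of -0.79 ± 0.23 (edgeR adjusted p = 0.0479). The groups of XRI1 (-0.78 ± 0.24, adjusted p = 0.0624) and of the cohesin SYN2 (-0.62 ± 0.21, adjusted p = 0.0805) missed the threshold. With the replicate block, 5 members were lower (XRI1 and SYN2 among those that joined) and 2 higher, beside 8.19% and 8.49% of all genes. With the block on the 6 libraries alone 1 was lower. TSO2 lost its call in each omission of a single library (adjusted p = 0.0534 to 0.121), and BRCA1 was lost in each omission except that of wild type replicate 4 (0.0487 to 0.149).

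The kinases ATM and ATR, the replication protein RPA70C and SNI1 showed log2 fold changes between -0.03 and 0.12, and 0 of the 5 genes in the sensor list were called. ATR had 8.95, 29.5 and 18.5 CPM in sog1-7, against 18.1, 18.2 and 16.2 CPM in wild type, with the low value in sog1-7 replicate 2.

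**Figure D2:**
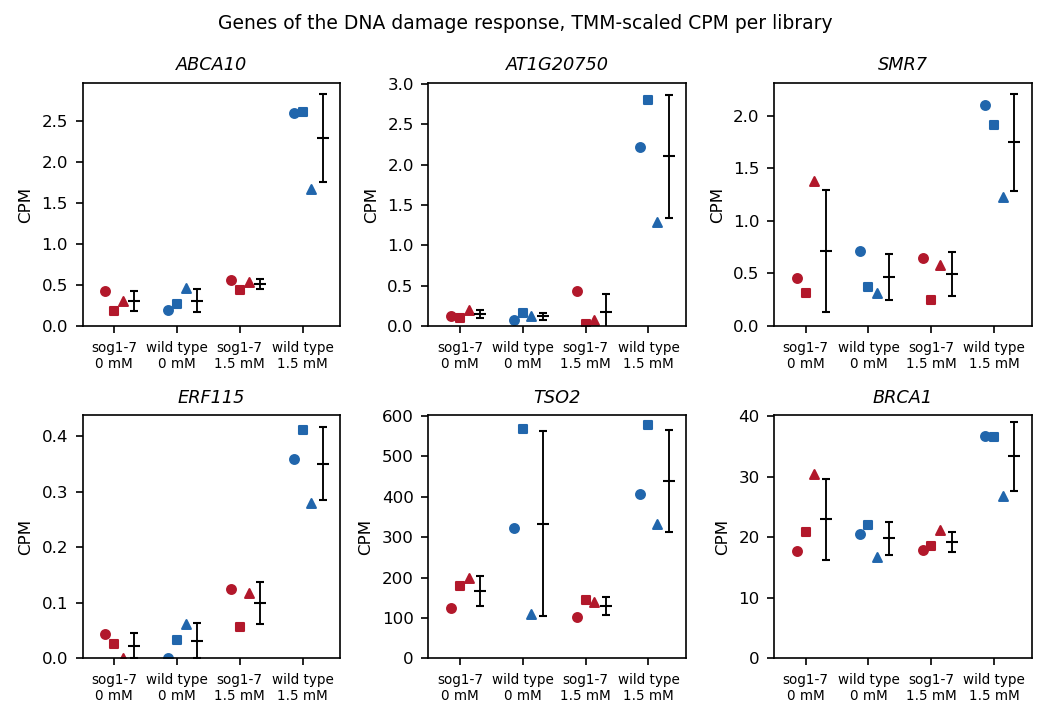
TMM-scaled CPM (vertical axes, from 0) of 6 genes of the DNA damage response in each library, sog1-7 in red on the left of wild type in blue at 0 mM and again at 1.5 mM, with circles, squares and triangles for replicates 2, 3 and 4 and black bars for mean and SD. At 1.5 mM the wild type points lie above the sog1-7 points in every panel, while at 0 mM the points of ABCA10, AT1G20750, SMR7 and BRCA1 overlap.

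The same genes were measured without aluminium. ABCA10 had 0.431, 0.181 and 0.303 CPM in sog1-7 at 0 mM, against 0.199, 0.269 and 0.465 CPM in wild type, and SMR7 had 0.453, 0.31 and 1.38 CPM, against 0.716, 0.369 and 0.31 CPM. At 0 mM, 0 members of the damage target list were lower in sog1-7, and NAC085 was higher (2.97, adjusted p = 0.00673). In the repair list, RAD50, MND1, RAD54 and RNR1 (AT2G21790) were higher at 0 mM, and 0 were lower. Over all genes, 5.29% were higher and 4.92% lower at 0 mM. The change of the genotype difference with AlCl3 was -2.11 ± 0.50 for ABCA10, -3.60 ± 1.00 for AT1G20750 and -2.39 ± 0.70 for SMR7, with unadjusted p of 0.00071, 0.00241 and 0.0038, and did not pass adjustment over all genes.

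Promoter sequence was read from the RefSeq assembly TAIR10.1, whose gene positions matched those of the deposited files. Within 250 bases before to 50 after the annotated start, the palindrome (CTT, 7 bases of any kind, AAG; both strands, alike on each) lay in 91 of 791 promoters of genes lower in sog1-7 (11.5%, exact 95% interval 9.4 to 13.9), in 84 of 811 of genes higher (10.4%, 8.3 to 12.7) and in 2447 of 21648 promoters of all genes tested (11.3%). It lay in 6 of 15 promoters of the damage target list (40%) and in 7 of 27 of the repair list (25.9%). Of the 5 called genes of both lists, SMR7 and AT1G20750 had a match, and ABCA10, TSO2 and BRCA1 had none in this window or in the 1000 bases before the start. The matches nearest to the start are shown for the 2 called genes and for 3 genes of the target list that were not called, to place motif and call side by side, with the fixed letters of the motif in capitals, written 5′ to 3′ on the strand of the gene.
SMR7, chr3:10231578-10231630, minus strand, lower in sog1-7: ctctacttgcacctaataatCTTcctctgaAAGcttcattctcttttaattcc
AT1G20750, chr1:7209116-7209168, minus strand, lower in sog1-7: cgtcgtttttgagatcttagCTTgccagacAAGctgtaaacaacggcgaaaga
NAC044, chr3:228990-229042, plus strand, not called: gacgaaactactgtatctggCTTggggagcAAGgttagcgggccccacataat
SMR4, chr5:442241-442293, minus strand, not called: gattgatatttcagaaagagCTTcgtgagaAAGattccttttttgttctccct
PARP2, chr4:1049650-1049702, plus strand, not called: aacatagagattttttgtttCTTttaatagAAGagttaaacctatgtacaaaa
The first base of the motif stood 43 bases before the start of SMR7, 135 before that of AT1G20750, 65 before that of NAC044, 86 before that of SMR4 and 96 before that of PARP2. None of the 5 stretches overlapped an annotated gene. A match to these letters is a description of the sequence and not a binding site.

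A few genes of cell division were higher in sog1-7, beside 3.75% of all genes. Of 22 genes of the G2 and M phases, 3 were higher and 0 lower, 20 had a positive log2 fold change and the median was 0.33. CYCB1;3, a mitotic B-type cyclin, had 15.2, 19.1 and 15.5 CPM in sog1-7, against 9.87, 11.3 and 10.5 CPM in wild type (0.65 ± 0.13, edgeR adjusted p = 0.00836). KNOLLE, the syntaxin of the cell plate, differed by 0.50 ± 0.14 (adjusted p = 0.0414) and CDKB2;2, a mitotic cyclin-dependent kinase, by 0.41 ± 0.12 (adjusted p = 0.0416). CYCB1;3 lost its call without sog1-7 replicate 3 (adjusted p = 0.05), while KNOLLE and CDKB2;2 lost theirs in each omission of a library (0.0542 to 0.156). Of 13 S phase genes, 0 were called, with a median of -0.14 that became 0.075 on FPKM values (0.226 over all genes). The replicate block raised the G2 and M count to 5, adding CYCB1;2 (0.40), but 0 members were called with only the 6 libraries fitted, with or without the block (CYCB1;3 at 0.0511 with it). At 0 mM, 8 of the 22 were higher, beside 5.29% of all genes.

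Among 16 endocycle genes and kinase inhibitors, 1 was higher and 0 lower, beside 3.75% and 3.65% of all genes. This was KRP7, with 4.63, 4.85 and 3.92 CPM in sog1-7, against 2.65, 2.62 and 3.32 CPM in wild type (0.64 ± 0.18, edgeR adjusted p = 0.0397). It lost its call in each omission except that of wild type replicate 4 (adjusted p = 0.0436 to 0.136). CCS52A2, an activator of the anaphase-promoting complex that acts in the root tip, had 4.49, 4.54 and 4.46 CPM in sog1-7, against 5.81, 6.17 and 6.09 CPM in wild type, at -0.42 ± 0.12 (adjusted p = 0.0521, and 0.0275 with the replicate block). Of 16 regulators of the root stem cell niche, among them WOX5 (0.14), SCR (0.11), PLT1 (0.47) and SHR (0.35), 0 were called.

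The genes of aluminium resistance held calls in both directions. ALMT1, the malate channel of root exudation, had 122, 134 and 136 CPM in sog1-7, against 144, 137 and 116 CPM in wild type (-0.02 ± 0.18). At 0 mM its mean was 9.76 CPM in sog1-7 and 10.1 CPM in wild type. STOP1, the zinc finger factor that drives ALMT1, differed by -0.22 ± 0.11 (adjusted p = 0.243), ALS3 by -0.35 ± 0.27, ALS1 by -0.05 ± 0.09 and the citrate transporter gene DTX42 (AT1G51340) by -0.10 ± 0.22. Of the 18 measured members, 1 was higher and 2 were lower, beside 3.75% and 3.65% of all genes. Their median of -0.16 became 0.039 on FPKM values, where that of all genes was 0.226. SLAH3, an anion channel, had 31.6, 43 and 33.5 CPM in sog1-7, against 70, 68.4 and 50.4 CPM in wild type (-0.80 ± 0.17, edgeR adjusted p = 0.0131), with a difference also at 0 mM (-1.08 ± 0.18). LPR1 and LPR2, ferroxidases of the root's response to low phosphate, moved apart, LPR1 at 0.71 ± 0.19 (adjusted p = 0.0318) and LPR2 at -0.57 ± 0.17 (adjusted p = 0.0497). Both were lost in each omission (0.0506 to 0.179), and SLAH3 without wild type replicate 2 or sog1-7 replicate 4 (0.0138 to 0.0628 over the 6 omissions). With only the 6 libraries fitted, 0 members were called.

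The iron deficiency genes formed the group with the largest drop. Plants short of iron take it up with the reductase FRO2 and the transporter IRT1 under the factor FIT and its partners BHLH38, BHLH39, BHLH100 and BHLH101, and BTS, a ubiquitin ligase, damps this response. Of 22 measured members, 14 were lower in sog1-7, beside 3.65% of all genes, and 0 higher. The list median was -3.09 (-2.906 on FPKM values). IRT1 (AT4G19690, chromosome 4, 10707344 to 10709015) had 4.53, 5.77 and 5.58 CPM in sog1-7, against 73, 65.1 and 69.8 CPM in wild type. The spread within each genotype was small beside the gap of -3.71 ± 0.20 log2 units (edgeR adjusted p = 1.12e-07). FRO2 (AT1G01580) had 5.17, 4.76 and 5.05 CPM in sog1-7, against 77.8, 56.7 and 77.8 CPM in wild type (-3.82 ± 0.25, edgeR adjusted p = 1.21e-06).

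The partner factors moved the same way. BHLH39 had 14, 7.61 and 7.24 CPM in sog1-7, against 174, 144 and 109 CPM in wild type (-3.88 ± 0.89, edgeR adjusted p = 0.0175). BHLH38 differed by -4.26 ± 1.03, BHLH100 by -4.97 ± 1.31 and BHLH101 by -4.53 ± 1.07. In all 4, sog1-7 replicate 2 was the highest mutant library, with 31.3 CPM of BHLH100, against 6.35 and 3.85 CPM in replicates 3 and 4 of sog1-7. BTS had 184, 165 and 125 CPM in sog1-7, against 1174, 959 and 903 CPM in wild type (-2.68 ± 0.57, edgeR adjusted p = 0.0113). PYE, a repressing factor of the same response, had 22.8, 19 and 13.6 CPM in sog1-7, against 58.8, 75.5 and 70.3 CPM in wild type (-1.88 ± 0.36, edgeR adjusted p = 0.00691). FIT had 6.19, 2.67 and 3.69 CPM in sog1-7, against 9.15, 8.19 and 5.18 CPM in wild type, with overlapping libraries (-0.84 ± 0.32, adjusted p = 0.128, and 0.013 with the replicate block).

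Genes that act after or beside uptake followed. MYB72, a factor of coumarin secretion, had 9 counts over the 3 sog1-7 libraries and 248 over the wild type libraries (-5.13 ± 0.87, edgeR adjusted p = 0.00344). CYP82C4, an enzyme of the same route, differed by -4.04 ± 0.94, the vacuolar metal transporter gene MTP3 by -1.78 ± 0.21, the nicotianamine synthase gene NAS4 by -1.04 ± 0.30, and the small genes AT1G47395 and AT1G47400 by -3.67 ± 0.77 and -3.50 ± 0.91. NAS3, with 2.53, 4.74 and 4.79 CPM in sog1-7, against 1.71, 1.27 and 2.45 CPM in wild type, was the 1 member with a positive value (1.14 ± 0.42, adjusted p = 0.109). FER1, a ferritin that stores iron, had 72.1, 100 and 106 CPM in sog1-7, against 8.96, 15.9 and 29.7 CPM in wild type, and was among the 12 largest rises (2.36 ± 0.49, edgeR adjusted p = 0.0106).

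The calls of IRT1, FRO2, MTP3, MYB72, PYE and FER1 held in each omission of a library. AT1G47395, BTS and BHLH39 lost theirs without sog1-7 replicate 3 or 4 (adjusted p up to 0.0805), BHLH38 and BHLH101 also without wild type replicate 2 (up to 0.0966), AT1G47400 also without wild type replicates 2 or 3 (up to 0.119), BHLH100 in each omission except that of sog1-7 replicate 2 (up to 0.121), CYP82C4 without wild type replicate 4 or any sog1-7 library (up to 0.0655) and NAS4 in each omission (0.0616 to 0.161). The list count was 5 without sog1-7 replicate 3 or 4 and 9 without wild type replicate 2.

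**Figure D3:**
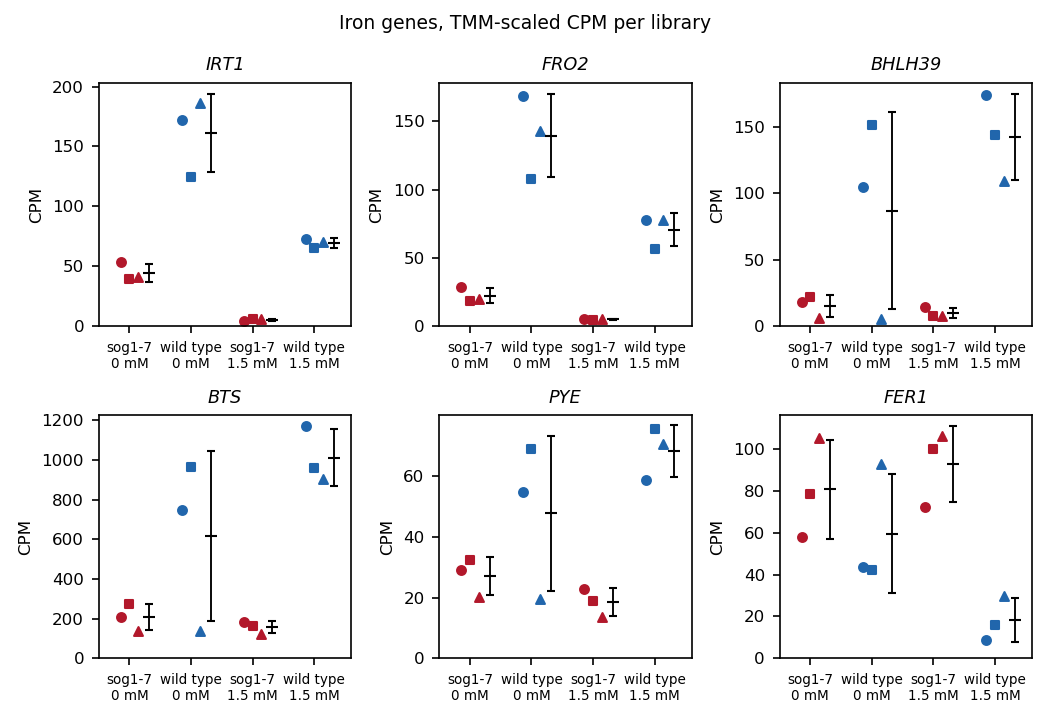
TMM-scaled CPM (vertical axes, from 0) of 6 iron genes in each library, sog1-7 in red on the left of wild type in blue at 0 mM and again at 1.5 mM, with circles, squares and triangles for replicates 2, 3 and 4 and black bars for mean and SD. At 1.5 mM sog1-7 and wild type points are apart in every panel, and at 0 mM wild type replicate 4 (triangle) lies with the sog1-7 libraries for BHLH39, BTS and PYE.

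At 0 mM, 10 of the 22 iron genes were lower in sog1-7 (median -1.71) and 0 higher, beside 4.92% and 5.29% of all genes. IRT1 had 53.3, 39.5 and 41 CPM in sog1-7 at 0 mM, against 172, 124 and 187 CPM in wild type (-1.85 ± 0.18, edgeR adjusted p = 8.15e-05). The change of the difference between 0 and 1.5 mM was -1.86 ± 0.26 (edgeR adjusted p = 0.0482), and IRT1 was the single gene of 21650 called for such a change (0.00462%), with 435 genes at an unadjusted p under 0.05. DESeq2 called 3 genes and the replicate block 4. This call ended in each omission of a library among the 12 of both genotypes (adjusted p = 0.0711 to 0.218), without the low-rRNA libraries (0.447), on FPKM values (0.372 and 0.911) and with only the 12 libraries fitted (0.159). For BTS and BHLH39 the 0 mM levels varied within wild type, with 748, 967 and 139 CPM of BTS and 104, 151 and 5.36 CPM of BHLH39, against 211, 272 and 140 CPM and 17.9, 22.1 and 6.22 CPM in sog1-7. The promoter of IRT1 held the palindrome 219 bases before its start, at chr4:10707105-10707157 on the plus strand, as 1 of 2 of 22 iron genes with a match in the window (9.1%, beside 11.3% of all), and is shown because IRT1 carries the strongest call of the comparison.
IRT1: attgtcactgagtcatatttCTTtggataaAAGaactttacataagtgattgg

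Most photosynthesis genes were lower in sog1-7. All 18 measured members had a negative log2 fold change (17 on the FPKM values), and the median was -1.24. Of these, 12 were called lower, beside 3.65% of all genes. LHCB3, a protein of the light-harvesting antenna, had 262, 207 and 251 CPM in sog1-7, against 956, 1263 and 1854 CPM in wild type (-2.50 ± 0.25, edgeR adjusted p = 0.000128). LHCB2.4, a relative outside the list that was among the 12 largest falls, had 35.4, 9.44 and 10.1 CPM in sog1-7, against 130, 343 and 502 CPM in wild type (-4.15 ± 0.63, edgeR adjusted p = 0.00194). RBCS2B, a small subunit of Rubisco, had 949, 615 and 539 CPM in sog1-7, against 3217, 4012 and 3671 CPM in wild type (-2.37 ± 0.40, edgeR adjusted p = 0.00315). Reads of the light-harvesting and Rubisco small subunit genes can be shared between near-identical copies, so the values of single copies are uncertain. For CAB2, CAB3 and LHCB2.2 the groups overlapped, and wild type replicate 2 stood far below the other wild type libraries: CAB3 had 389, 340 and 567 CPM in sog1-7, against 422, 2559 and 4157 CPM in wild type. These 3 were lost in each omission except that of wild type replicate 2 (up to 0.137). RCA was lost in each omission except that of sog1-7 replicate 2 (up to 0.128), GAPA without wild type replicate 2 or sog1-7 replicate 3 or 4 (up to 0.0772) and PRK without sog1-7 replicate 3 or 4 (up to 0.0742). LHCB3, LHCA1, LHCA3, LHCA4, RBCS2B, PSBP1 and LHCB2.4 kept theirs in each omission. With the block on the 6 libraries alone, LHCA1 (0.0982), PSBP1 (0.065), LHCA3 (0.0522) and LHCB2.4 (0.0579) were lost, and the list count was 5 there, 5 with only the 6 libraries fitted and 6 on FPKM values. At 0 mM, 16 of the 18 were lower (median -2.099), beside 4.92% of all genes.

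Of 13 clock genes, 4 were lower in sog1-7 and 0 higher, beside 3.65% and 3.75% of all genes. CCA1, a morning factor of the circadian oscillator, had 22.2, 17.58 and 19.9 CPM in sog1-7, against 85.8, 88.9 and 113 CPM in wild type (-2.27 ± 0.24, edgeR adjusted p = 0.000128). Its partner LHY had 86.8, 73.3 and 67.5 CPM in sog1-7, against 200, 216 and 260 CPM in wild type (-1.57 ± 0.20, edgeR adjusted p = 0.000624). RVE8 (-1.15 ± 0.27, adjusted p = 0.0178) and PRR7 (-0.90 ± 0.24, adjusted p = 0.0367) were the other two called. PRR9 (-1.21 ± 0.47, adjusted p = 0.131), RVE1 (-0.81), GI (-0.26), TOC1 (0.08), PRR5 (0.17), LUX (0.12), ELF3 (0.34), ELF4 (0.40) and GRP7 (0.46) were not called. With only the 6 libraries fitted, and on FPKM values, 2 were lower. CCA1 and LHY kept their calls in each omission, RVE8 was lost without wild type replicate 2 or 4 or sog1-7 replicate 3 or 4 (up to 0.086), and PRR7 in each omission except that of sog1-7 replicate 4 (up to 0.131). The seedlings grew in constant light, and the labels give no time of day. CCA1, LHY and RVE8 were lower at 0 mM too, with CCA1 at 31.2 CPM in sog1-7 and 121 CPM in wild type.

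All 4 called clock genes held the hexamer CACGTG, known as the G-box, in the promoter window of 250 bases before to 50 after the start, as did 8 of the 13 clock genes (61.5%), 14.4% of the genes lower in sog1-7, 10.4% of those higher and 8.7% of all. The hexamer, a palindrome searched on both strands, was chosen after these values were seen. The match nearest to the start within the upstream sequence is shown for 3 of them, in capitals, because they share it while only LHY of the 3 has the SOG1 motif in the window.
CCA1, chr2:19245378-19245423, plus strand: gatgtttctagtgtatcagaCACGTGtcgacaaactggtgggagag
LHY, chr1:37926-37971, minus strand: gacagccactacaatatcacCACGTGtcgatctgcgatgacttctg
PRR7, chr5:642206-642251, minus strand: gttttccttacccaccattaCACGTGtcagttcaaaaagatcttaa

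Some transcripts of the seed and of its reserves were higher in sog1-7. The summed level of the seed storage genes overlapped between the genotypes (12.3 to 93.3 CPM in sog1-7, 13.2 to 26.6 CPM in wild type). Of 14 measured seed storage genes, 4 were higher and 0 lower, beside 3.75% and 3.65% of all genes. The list median was 2.93. CRC, a cruciferin storage protein and the largest rise of the comparison by the rule used, had 1.33, 30.1 and 14.2 CPM in sog1-7, against 0.083, 0.15 and 0.245 CPM in wild type (6.58 ± 1.41, edgeR adjusted p = 0.0122). SESA3, an albumin storage protein, had 1.56, 6.35 and 10.1 CPM in sog1-7, against 0, 0.15 and 0.28 CPM in wild type (5.43 ± 0.99, edgeR adjusted p = 0.00498). CRA1 and SESA1 rose by 5.18 ± 1.31 and 5.09 ± 1.21. In all 4, sog1-7 replicate 2, the library with few ribosomal reads, was the lowest mutant library. CRC was lost without wild type replicate 2 (0.0602), and CRA1 and SESA1 in each omission except that of sog1-7 replicate 2 (up to 0.112), while SESA3 held in each. With the replicate block 8 members were higher, beside 8.49% of all genes (6 on the 6 libraries alone), and at 0 mM 0 were called. A gene passes the filter on low counts when enough libraries, of any group, reach its floor. Seed genes near 0 in wild type, as CRC and SESA3, could thus enter through libraries where they were high, and RAB28 did not pass. How far this moved the list median was not tested. Without the filter, 4 members were called higher as well.

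Of 8 genes of reserve mobilisation, by which the seedling turns stored oil into sugar, 4 were higher, beside 3.75% of all genes. MFP2, an enzyme of peroxisomal fatty acid breakdown, had 332, 553 and 464 CPM in sog1-7, against 137, 213 and 207 CPM in wild type (1.28 ± 0.24, edgeR adjusted p = 0.00635). MLS, the malate synthase of the glyoxylate cycle, had 291, 832 and 581 CPM in sog1-7, against 31.1, 218 and 170 CPM in wild type (2.02 ± 0.56, edgeR adjusted p = 0.0403). PCK1 (1.28 ± 0.36) and KAT2 (AT2G33150, 0.88 ± 0.25) were the others. The cycle's partner enzyme ICL had 2249.5, 7605 and 4736 CPM in sog1-7, against 215, 1755 and 1436 CPM in wild type, at 2.1 ± 0.64 (adjusted p = 0.0604, and 0.00104 with the replicate block). Within each genotype replicate 2 was the lowest library for these genes. MFP2 held in each omission, and MLS and KAT2 were lost without wild type replicate 2 or 4 or sog1-7 replicate 3 or 4 (up to 0.17), and PCK1 also without wild type replicate 3. With only the 6 libraries fitted 1 of the 8 was higher, and 5 with the block there. At 0 mM, 5 of the 8 were higher, beside 5.29% of all genes.

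Calls in the other lists follow, beside 3.75% of all genes higher and 3.65% lower. For counts from the replicate block the shares are 8.49% and 8.19%. Of 15 defence genes, PAD3, the last enzyme of camalexin synthesis, and EDS1 were lower (-0.84 ± 0.24 and -0.53 ± 0.15), with a list median of -0.84. PR1, a marker of salicylic acid signalling, had 0.312, 0.334 and 0.117 CPM in sog1-7, against 2.24, 4.97 and 1.22 CPM in wild type, and missed the threshold (-3.45 ± 1.06, adjusted p = 0.0613). The replicate block gave 6 defence genes lower and 1 higher, and on the 6 libraries alone 4 lower. PAD3 and EDS1 were not among those 4 (edgeR adjusted p = 0.0616 and 0.069). Both calls also ended with only the 6 libraries fitted, without the filter on low counts and on FPKM values. Of 18 oxidative stress genes, the glutathione transferase GSTF7 was lower, with 23.7, 36.4 and 36.9 CPM in sog1-7, against 66.5, 80.7 and 63.5 CPM in wild type (-1.12 ± 0.21, edgeR adjusted p = 0.0067), and the catalase CAT1 (AT1G20630) was higher (1.35 ± 0.30, adjusted p = 0.0143). GSTF7 had 21.7 CPM in sog1-7 and 20.3 CPM in wild type at 0 mM, and the change of its difference with AlCl3 was -1.21 ± 0.30 (unadjusted p = 0.00113, not called). Its close copy GSTF6 can share reads with it. PAD3 was lost in each omission except that of sog1-7 replicate 2 (up to 0.157), EDS1 without wild type replicate 2 or 3 or sog1-7 replicate 3 or 4 (up to 0.187) and CAT1 without wild type replicate 2 or sog1-7 replicate 3 or 4 (up to 0.0697).

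Of 16 suberin genes, FAR1 (AT5G22500), a fatty acyl reductase, was lower (11, 8.61 and 10.5 CPM in sog1-7, against 25.5, 32 and 30.7 CPM in wild type; -1.55 ± 0.20, edgeR adjusted p = 0.00092), RIC4 was lower (-1.06 ± 0.20) and ACX2 higher (0.58 ± 0.15). RIC4 is known as an effector of ROP GTPases and ACX2 as an acyl-CoA oxidase of peroxisomal fatty acid breakdown, so neither is an enzyme of suberin synthesis. FAR1 held in every alternative run. RIC4 held in each omission but was lost on log2(FPKM + 0.1) (limma adjusted p = 0.0546) and in both fits of the 6 libraries (0.0697 and 0.0788), and ACX2 was lost in each omission except that of sog1-7 replicate 2 (up to 0.127). Of 12 xylem genes, CESA4 (-0.49 ± 0.11) and CESA8 (-0.54 ± 0.15), subunits of the cellulose synthase of the secondary wall, were lower. Their calls ended without wild type replicate 2 or sog1-7 replicate 3 for CESA4 (up to 0.0658) and in each omission for CESA8 (up to 0.147), and both were absent on FPKM values (0.21 to 0.406). With the block 4 xylem genes were lower, CESA7 and LAC17 joining, and with the block on the 6 libraries alone 0 were (CESA4 at 0.0693 and CESA8 at 0.134). Of 10 Casparian strip genes, 13 root hair genes and 17 genes of other nutrient transport, 0 were called.

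Of 21 ethylene and auxin genes, IAA1 (-0.61 ± 0.14, adjusted p = 0.0186), SHY2 (-0.75 ± 0.21) and ACS8 (-1.32 ± 0.38), a synthase of the ethylene precursor, were lower and 0 higher. With the block 6 were lower, IAA19 and IAA29 among them, but with the block on the 6 libraries alone 1 was, and IAA1 (0.118) and ACS8 (0.0829) were lost there. IAA1 was lost without wild type replicate 2 or sog1-7 replicate 3 or 4 (up to 0.0933), SHY2 in each omission except that of sog1-7 replicate 2 (up to 0.184) and ACS8 in each except that of wild type replicate 4 (up to 0.192). Of 12 abscisic acid genes, COR15A was lower (0.582, 1.17 and 0.584 CPM in sog1-7, against 5.81, 9.95 and 3.15 CPM in wild type; -3.03 ± 0.67, edgeR adjusted p = 0.014), and lost without wild type replicate 3 or sog1-7 replicate 4 (up to 0.068). RAB18 had 2.31, 4.9 and 5.58 CPM in sog1-7, against 0.332, 0.449 and 0.455 CPM in wild type (3.37 ± 1.01, adjusted p = 0.0532). The block gave 2 higher and 2 lower, beside 8.49% and 8.19% of all genes.

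Of 23 phosphate starvation genes, SPX3, a repressor of the phosphate response that rises when phosphate is short, was higher, with 8.06, 13.5 and 10.2 CPM in sog1-7, against 1.85, 4.11 and 2.76 CPM in wild type (1.87 ± 0.43, edgeR adjusted p = 0.0175). The block gave 7 higher and 1 lower, beside 8.49% and 8.19% of all genes, and on the 6 libraries alone 3 higher. SPX3 was lost without wild type replicate 2 or 4 or sog1-7 replicate 3 or 4 (up to 0.0807). Of 8 heat shock genes, all had positive values (median 1.05), HSP90.1 was higher (0.82 ± 0.19, adjusted p = 0.0155) and the block gave 3. HSP90.1 was lost without wild type replicate 2 or 4 or sog1-7 replicate 3 or 4 (up to 0.0744). Of 15 cell wall genes, the wall-associated kinase genes WAK2 and WAK3 were lower. WAK2 had 6.42, 8.13 and 6 CPM in sog1-7, against 25.9, 37.4 and 20.8 CPM in wild type (-2.03 ± 0.56, edgeR adjusted p = 0.0385). WAK3 had 2 counts over the sog1-7 libraries and 60 over the wild type libraries, a ratio of 0.0241 (exact 95% counting interval 0.00285 to 0.0907). WAK2 was lost in each omission (up to 0.127) and WAK3 in each omission except that of wild type replicate 4 (up to 0.113).

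**Figure D4:**
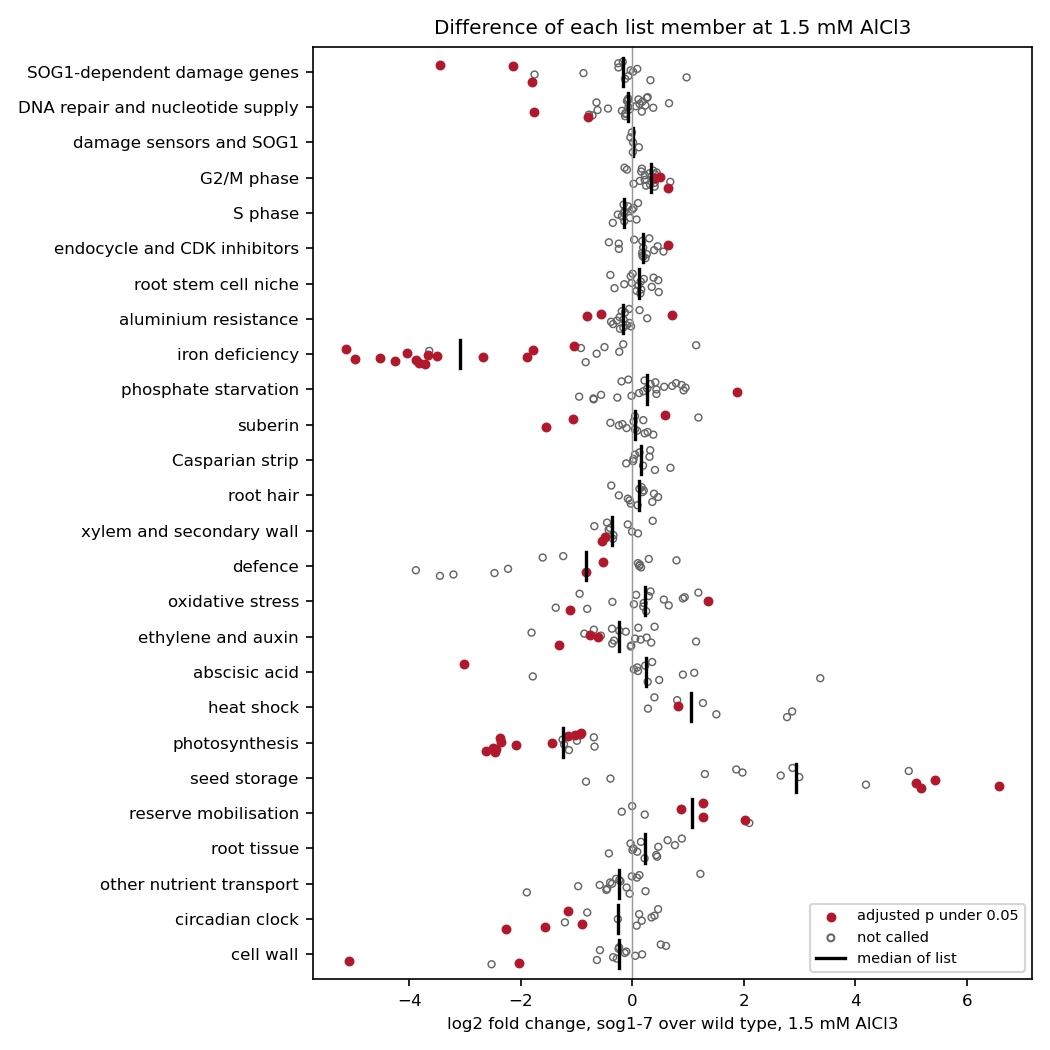
log2 fold change of sog1-7 over wild type at 1.5 mM AlCl3 (horizontal axis) for every measured member of 26 gene lists (rows), with red points for adjusted p under 0.05, open points for the rest and a black bar at the median. Iron deficiency (median -3.09) and photosynthesis (-1.24) lie left of 0, and seed storage (2.93) and reserve mobilisation (1.08) lie right of it.

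Single genes outside the lists reached as far, and the largest changes held these and list members. The 12 largest rises among genes with a mean log2 CPM of at least 1 and no overlap of libraries were CRC, CRA1, QQS, AT5G59390, ABI4, EPR1, PDF1.1, AT3G05945, AT1G30170, AT1G17960, AT3G61920 and FER1. QQS, an orphan gene that regulates starch content, had 53.4, 24.4 and 30.5 CPM in sog1-7, against 1.91, 1.12 and 1.78 CPM in wild type (4.48 ± 0.41, edgeR adjusted p = 6.53e-05). Its difference at 0 mM was 4.96 ± 0.43. AT3G05945 (2.89 ± 0.30), AT5G59390 (3.55 ± 0.47) and AT1G17960 (2.47 ± 0.33) were higher at both concentrations as well, and these 4 calls held in each omission. EPR1, an extensin-like protein, had 4.4, 38.2 and 22.2 CPM in sog1-7, against 2.07, 2.28 and 2.41 CPM in wild type (3.26 ± 0.67, edgeR adjusted p = 0.01), and held in each omission (up to 0.049) but not with only the 6 libraries fitted (0.0519). ABI4, an abscisic acid factor of the seed, rose by 3.31 ± 0.78, the defensin PDF1.1 by 2.96 ± 0.74, AT1G30170 by 2.55 ± 0.61 and AT3G61920 by 2.46 ± 0.64. ABI4 and AT3G61920 were lost without wild type replicate 2 or 4 or sog1-7 replicate 3 or 4 (up to 0.103), and PDF1.1 and AT1G30170 in each omission except that of sog1-7 replicate 2 (up to 0.099).

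The 12 largest falls were AT4G36700, AT1G62420, BHLH100, AT1G12030, LURP1, AT4G06195, ASG4, AT3G02480, BHLH101, BHLH38, LHCB2.4 and AT1G13608. AT4G36700 had 12.3, 2.06 and 0.771 CPM in sog1-7, against 313, 278 and 212 CPM in wild type (-5.72 ± 1.54, edgeR adjusted p = 0.0357). AT1G62420 (-5.21 ± 1.46) and AT1G12030 (-4.93 ± 1.37) had the same order of libraries in sog1-7, replicate 2 the highest and replicate 4 the lowest. ASG4, a MYB-like factor, had 2.04, 0.585 and 0.374 CPM in sog1-7, against 21.7, 26.6 and 25.6 CPM in wild type (-4.58 ± 0.85, edgeR adjusted p = 0.00553), and held in each omission. AT3G02480 had 5.26, 3.32 and 2.41 CPM in sog1-7, against 50.9, 120 and 83.9 CPM in wild type (-4.53 ± 1.32, edgeR adjusted p = 0.0495). LURP1 (-4.74 ± 1.36), AT4G06195 (-4.59 ± 0.96) and AT1G13608 (-4.04 ± 1.15) completed them. AT3G02480 and AT1G13608 were lost in each omission (up to 0.16), AT4G36700, AT1G62420 and AT1G12030 in each omission except that of sog1-7 replicate 2 (up to 0.142), LURP1 without wild type replicate 2 or 3 or sog1-7 replicate 3 or 4 (up to 0.153) and AT4G06195 without sog1-7 replicate 3 or 4 (up to 0.0592).

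Most of the aluminium calls were shared with seedlings grown without aluminium. Replicate 2 of sog1-7 had few ribosomal reads at both concentrations, and its part in the shared calls was not tested. At 0 mM, 2211 genes were called between sog1-7 and wild type (10.2%), 1146 higher (5.29%) and 1065 lower (4.92%). Of the 1602 genes called at 1.5 mM, 1122 were called at 0 mM (70% of the 1.5 mM calls and 50.7% of the 0 mM calls), 610 higher at both, 512 lower at both and 0 in opposite directions. The other 480 passed at 1.5 mM and not at 0 mM, which does not show that they differ between concentrations. By the smaller of the 2 fold changes, the largest shared genes were AT4G36700, AT1G12030, AT3G02480, QQS, AT3G44006, LHCB2.4, CYP82C4 and BHLH101. AT3G44006 had 3 counts over the sog1-7 libraries and 55 over the wild type libraries at 1.5 mM, a ratio of 0.0394 (exact 95% counting interval 0.00788 to 0.121).

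**Figure D5:**
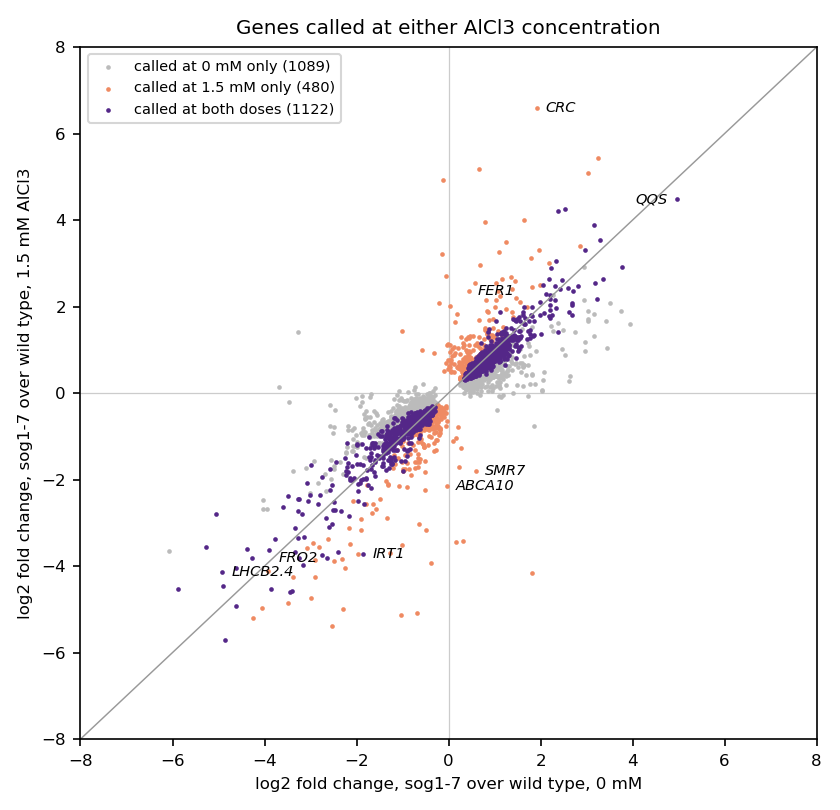
log2 fold change of sog1-7 over wild type at 0 mM (horizontal axis) and at 1.5 mM AlCl3 (vertical axis) for genes called at either concentration, with the line of equal values. The 1122 genes called at both lie at the lower left and the upper right, SMR7 and ABCA10 lie near 0 on the horizontal axis and below 0 on the vertical one, and CRC and FER1 lie above the line.

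The called genes were spread over the genome. The share called was 7.45% on chromosome 1, 7.14% on 2, 7.63% on 3, 6.63% on 4 and 7.82% on 5. Within 1 Mb of SOG1, 18 of 393 tested genes were called (4.58%), 12 higher and 6 lower.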

How the data were processed

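Poly(A) RNA of whole seedlings was sequenced in 18 libraries of 6 groups, and the 6 libraries of sog1-7 and wild type at 1.5 mM carry the comparison. The deposited count values are whole reads per gene made with featureCounts, whose version is 2.0.0 per the submitters' processing notes. Listed there too are the build TAIR10, STAR 2.7.3a, FastQC 0.11.7 and DESeq2 1.36.0. The deposited FPKM values, fragments scaled by gene length and depth, came from Cufflinks 2.2.1, per the submitters' processing notes. No source used here gives the strand setting or the handling of reads with several hits, so near-identical, overlapping and antisense genes are uncertain.

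Counts were tested with edgeR 4.0.16 (R 4.3.3): TMM scaling, filterByExpr by group (21650 of 32833 genes), a robust quasi-likelihood fit with a mean for each of the 6 groups, on 18 libraries, and Benjamini-Hochberg adjusted p under 0.05. CPM are TMM-scaled, and fold changes are sog1-7 over wild type in log2 units ± SE. Each SE was back-calculated as the absolute log2 fold change over the square root of the quasi-likelihood F statistic, so it is approximate. The alternatives were DESeq2 1.42.0, RLE scaling, no filter, only the groups compared, the replicate block, omission of the low-rRNA libraries or of each library, and limma 3.58.1 on log2(FPKM + 0.1) and log2(FPKM + 1) with a mean FPKM of at least 0.5. The script was tested on simulated data. Same-numbered sog1-7 and wild type libraries deviated together at 1.5 mM (r = 0.246, 0.286 and 0.224 for replicates 2, 3 and 4). The main fit has no term for this, so its p-values and SE leave it out. Only the replicate block runs took the numbers as pairs. At 0 mM the correlations were -0.05, 0.224 and 0.126, and those of als3-1 libraries were not computed. No 2 libraries of a group agreed within sampling noise (lowest chi-square per degree of freedom 16.96). Of 32538 genes in files and RefSeq, 32519 had the same start and end (99.94%).

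Gene lists and the rule for named genes were chosen with earlier results of these data known. The text names the 12 largest called changes in each direction without overlap of libraries, every called list member and SOG1, up to 4 further members a list, genes called for a change with AlCl3 and the 8 largest calls shared by both concentrations; all other names are given as values and were chosen after these were seen. AT5G64100 was dropped from the Casparian strip list because the identifier belongs to another peroxidase than the one meant. The values of 1 member of the repair list are not reported here.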

Additional observations from a re-analysis of the deposited data

Results flagged for a closer look

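IRT1 is the gene whose difference between sog1-7 and wild type changed between 1.5 and 0 mM AlCl3 by the test of the change itself (-1.86 ± 0.26 log2 units, edgeR adjusted p = 0.0482). The fall was -3.71 at 1.5 mM and -1.85 at 0 mM, and all 3 sog1-7 libraries lay below all 3 wild type libraries at both concentrations. The call ended in each omission of a library among the 12, at adjusted p = 0.0711 to 0.218.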

How the results depend on the processing

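Of 104 named genes called at 1.5 mM, 33 lost their call in no alternative run, 71 lost it in at least 1 and 0 reversed. A run that did not measure a gene, or gave it no adjusted p, did not count as a loss. At 1.5 mM the count of 1602 became 2603 with DESeq2, 3611 with the replicate block and 643 with only the groups compared. It became 898 with the block on those 6 libraries (added after the data were seen), 555 with a 2-fold minimum and 583 to 1412 without 1 library. Without the low-rRNA libraries it was 2347, with 1304 of the 1602 among them. At 0 mM the count of 2211 became 4124 with the replicate block, 1134 with only the groups compared, 774 with a 2-fold minimum and 1208 to 1810 without 1 library. Same-numbered libraries had r = -0.05, 0.224 and 0.126 there for replicates 2, 3 and 4, and whether they are paired was not tested. For the change with AlCl3 the count of 1 became 3 with DESeq2, 4 with the replicate block, and 0 on both FPKM scales, without the low-rRNA libraries, with only the groups compared and in each omission of a library among the 12 (0 to 0). The SOG1 motif lay before 32.7% of the genes lower in sog1-7 in a 1000-base window (added after the data were seen), beside 32.9% of all genes, and in 11.5% in the main window. No list median changed sign with RLE scaling or DESeq2, and on FPKM values those of the damage target, repair, S phase, aluminium and nutrient transport lists did, as did the sigma factor list (-0.082 on counts, 0.105 on FPKM) and that of the bHLH factors upstream of the iron response (-0.067 and 0.163). The median over all genes moved too, from 0.011 on counts to 0.226 on log2(FPKM + 0.1). The cause of these changes was not tested. Depth limits genes near 3 counts a library, 0.0674 to 0.104 CPM, and intervals from counts cover counting error only.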

Other observations

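The groups here were chosen after the values were seen, so their counts are descriptions. Of 12 nuclear genes for proteins associated with the plastid-encoded RNA polymerase, 10 were higher in sog1-7 at 1.5 mM and 0 lower (median 0.98). Over all genes the shares were 3.75% and 3.65%. The photosynthesis genes above were lower. That polymerase transcribes the chloroplast genome. Genes of the organelles had 0 counts, so its plastid-encoded subunits were not measured. PTAC10 had 236, 235 and 246 CPM in sog1-7, against 114, 97 and 114 CPM in wild type (1.14 ± 0.17, edgeR adjusted p = 0.00154), and FLN1, a fructokinase-like protein, had 129, 121 and 132 CPM, against 44, 47.1 and 58.2 CPM (1.35 ± 0.20, edgeR adjusted p = 0.00154). The list also held 10 higher members at 0 mM, beside 5.29% of all genes. PTAC3, PTAC6, PTAC10, FLN1, FSD3 and MURE held when each library was left out in turn, FLN2, FSD2, PTAC12 and CITRX (AT3G06730) did not (adjusted p up to 0.102), and PTAC7 was at -0.05. Of 6 sigma factors, which direct that polymerase, 0 were called.

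All 4 LNK genes, coactivators of the morning clock, were lower in sog1-7 (median -1.88), and each held in each such omission. LNK2 had 54, 31.6 and 43.2 CPM in sog1-7, against 130, 128 and 187 CPM in wild type (-1.79 ± 0.25, edgeR adjusted p = 0.00124). Of 4 ferritin genes, FER1 was called, and FER4 had 41, 37 and 43.2 CPM in sog1-7, against 10.6, 11.8 and 19.9 CPM in wild type (1.52 ± 0.50, adjusted p = 0.0798). Of 5 bHLH factors upstream of the iron response, among them BHLH115 and BHLH121, 0 were called, at log2 fold changes near 0 (median -0.07, and 0.163 on FPKM values, where all genes lay at 0.226). Of 12 genes of aliphatic glucosinolate synthesis, 3 were lower, beside 3.65% of all genes. CYP79F1 had 6.79, 3.71 and 3.83 CPM in sog1-7, against 55.4, 46.9 and 43.9 CPM in wild type (-3.34 ± 0.51, edgeR adjusted p = 0.00213), and held in each omission. CYP83A1 (-0.67 ± 0.15) was lost without replicate 3 of either genotype (up to 0.0589) and MYB29 (-1.58 ± 0.39) without wild type replicate 2 or sog1-7 replicate 3 or 4 (up to 0.125).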
